A study of Mus musculus with 4 samples.

Results

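The genes described here are 10 members of the bone morphogenetic protein (BMP) pathway, chosen by name from the 32285 genes of the count tables: the ligands Bmp2, Bmp4, Bmp7, Gdf5 and Gdf10, the secreted antagonists and modulators Grem1, Nog and Bmper, and the target genes Id1 and Id3. All 10 were found under these symbols, and their unique molecular identifiers (UMIs, counts of captured RNA molecules) were read in each of 4 single-cell RNA libraries of the mouse digit. The study amputated the digit through the middle of the second phalanx (P2), a level at which the digit does not regenerate and scars instead. One library came from unamputated P2 tissue and the others from tissue taken 12, 17 and 28 days post-amputation (dpa). All 4 groups were labelled as wild-type FVB/NJ mice, 8 weeks old, males and females pooled, with no transgene or drug. Cells were freed from the tissue by trypsin and collagenase I, cleared of red cells and sorted for life by propidium iodide, so a cell type that resists digestion or dies in it would be under-represented.

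BMPs are secreted dimers of the TGF-beta superfamily that bind pairs of type I and type II serine/threonine kinase receptors, which phosphorylate SMAD1, SMAD5 and SMAD9. These join SMAD4 in the nucleus and raise the transcription of targets, among them the Id genes, whose products block basic helix-loop-helix transcription factors. Noggin and gremlin bind ligands outside the cell and keep them from their receptors, while BMPER (crossveinless) can either restrain or aid them. In the digit, BMPs pattern the joints and drive bone formation, and GDF5 marks joint-forming tissue.

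Each group was 1 library, so no difference below has a replicate check or a test, and the intervals cover counting error only. The libraries held 92313847 to 197140774 UMIs, and 35046 cells passed the filters, 10442 from the unamputated digit and 6496, 7935 and 10173 at 12, 17 and 28 dpa. Median UMIs per cell ran from 11636 in the unamputated library to 6661 at 28 dpa, and pairs of libraries shared 19 to 87 cell barcodes. Cells were clustered without the 10 genes and without the other BMP genes listed below, and clusters were named by marker genes as classes, such as fibroblast-like. Levels are UMIs summed over the cells of a class, per 1000000 of that class's UMIs (CPM), with exact Poisson 95% intervals. A gene is called here when its CPM + 1 differed at least 2-fold from the unamputated library and it reached 10 CPM in the higher one. Where genes are counted as reaching 10 CPM at a later time, the higher library of that comparison is likewise meant. The transcripts of sex chromosomes went against the pooled label: Xist stood at 459 CPM at 12 dpa and at 0.0758 to 0.166 CPM in the others, while the summed 4 Y-linked genes stood at 0.229 CPM at 12 dpa and at 245 to 350.1 CPM in the others. Any difference of the 12 dpa library from the rest therefore cannot be told apart from a difference between mice of different sex.

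The makeup of the stromal classes differed between libraries, and several values below turn on it. Fibroblast-like cells numbered 721, 323, 1813 and 2446 in the unamputated, 12, 17 and 28 dpa libraries. The class lay mostly in cluster 12 (led by C4b, Igf1 and Pi16), cluster 19 (Clec3b, Ccn3, Mfap5) and cluster 20 (Itih5, Hcn4, Foxd1). Cluster 12 held 36.2, 4.95, 28.1 and 21.3% of them, cluster 19 held 46.9, 84.2, 48.2 and 64.9%, and cluster 20 held 16.2, 8.67, 22.4 and 12.5%. Cluster 20 had 8 of the 10 fibroblast markers in its cells but none among its 10 leading genes, so its name is less sure than those of clusters 12 and 19; the same holds for cluster 21 among the tenocyte-like ones, with 7 of 7 markers. Tenocyte-like cells numbered 989, 1836, 817 and 588 and lay in cluster 9 (Comp, Chad, Ogn), cluster 11 (C1qtnf3, Fmod, Scx) and cluster 21 (Fbn2, Col24a1, Tnn). Cluster 9 had 5 of the 7 tenocyte markers in its cells, fewer than clusters 11 and 21, and 2 of them among its 10 leading genes. Cluster 9 held 31.5, 4.30, 60.5 and 40.6% of the tenocyte-like cells and cluster 21 held 47.6, 44.6, 12.9 and 2.72%. Clusters 12 and 20 at 12 dpa, with 16 and 28 cells, and osteoblast-like cells at 12 dpa, with 16 cells, were too few to measure.

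Over all kept cells the genes spanned from 58 UMIs for Gdf5 and 322 for Grem1 to 27287 for Id1 and 112140 for Id3, with 8521 for Bmp2, 7206 for Bmp4, 4080 for Bmp7, 17606 for Gdf10, 1216 for Nog and 3496 for Bmper. The library preparation captured transcript 3′ ends, so counts of different genes can be set side by side without a correction for length. Each gene had its own distribution over classes. By the highest classes of the unamputated library, the ligands split into mural and endothelial (Bmp2), fibroblast, basal keratinocyte and endothelial (Bmp4), epithelial (Bmp7) and stromal (Gdf10). At 17 and 28 dpa osteoblast-like cells stood above endothelial-like ones for Bmp2.

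**Figure D1:**
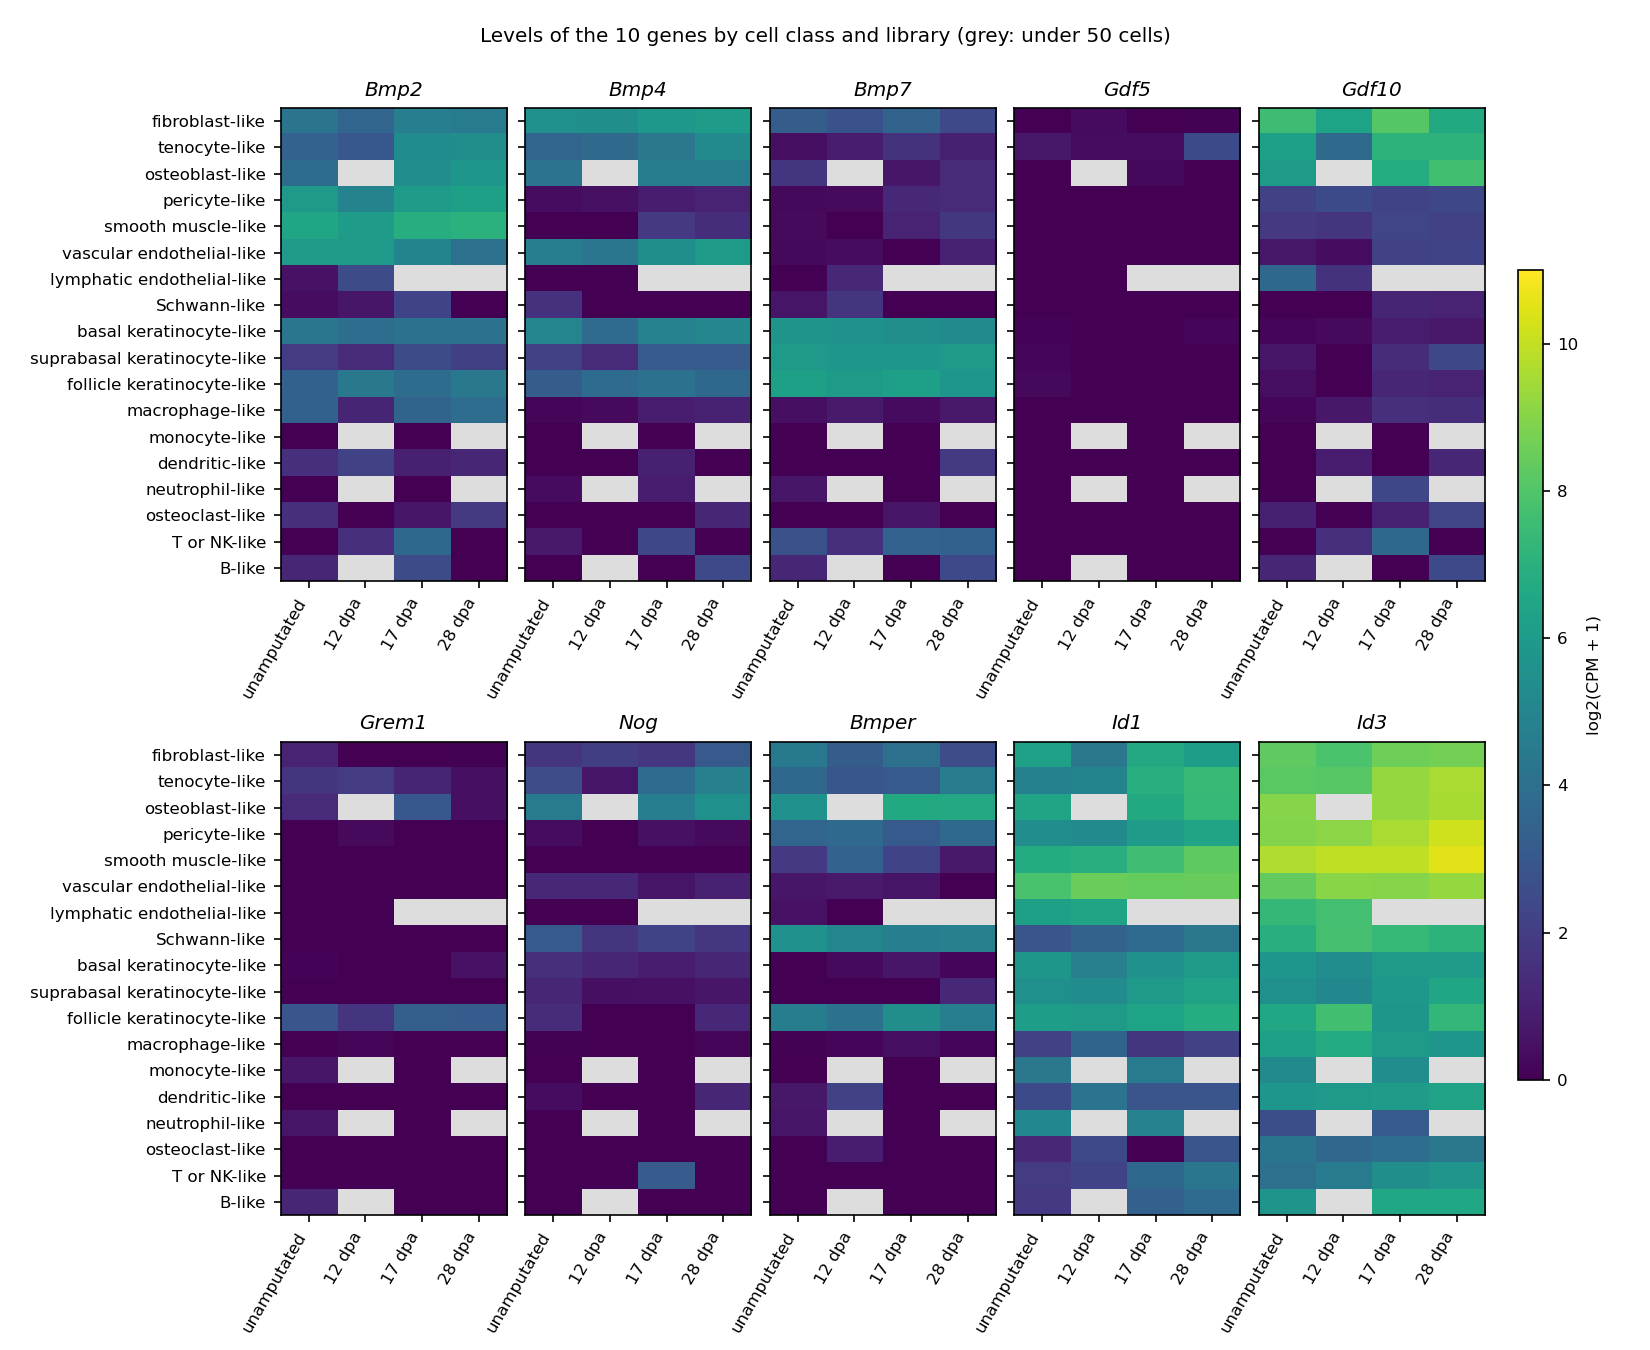
Colour gives the level of each of the 10 genes, as log2(CPM + 1), in each marker-named class (rows) of each library (columns), with grey where a class had under 50 cells. Bmp7 is brightest in the keratinocyte-like classes and Gdf10 in fibroblast-like, tenocyte-like and osteoblast-like cells, while Gdf5 and Grem1 stay below 10 CPM in every class.

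Bmp2 encodes a ligand needed for bone formation and fracture repair. In smooth muscle-like cells its level was 87.8, 63.7, 114 and 128 CPM in the unamputated, 12, 17 and 28 dpa libraries, the highest class in each of the 4 libraries, although at 12 dpa not beyond its interval from the 59.8 CPM of endothelial-like cells. Pericyte-like cells held 58.4, 28.9, 65.2 and 74.7 CPM, lowest at 12 dpa, 2.02-fold below the unamputated level. In the unamputated library the pericyte-like level did not differ from the endothelial-like one given next beyond their intervals. Vascular endothelial-like cells went the other way in the later libraries. Their Bmp2 level was 59.4 CPM in the unamputated library (55.9 to 63.2), 59.8 at 12 dpa (54.1 to 65.9), 30 at 17 dpa (24.8 to 36.1) and 15.9 at 28 dpa (11.7 to 21.1). The first pair of libraries overlapped and each later library lay below the one before, outside its interval. Against the unamputated library the 28 dpa level was 3.74-fold lower (2.80 to 5.11) and the 17 dpa level 1.98-fold lower (1.63 to 2.42).

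Bmp4, a close relative of Bmp2 that also binds its receptors, had the opposite course in the same endothelial cells. Its level was 24.8 CPM in the unamputated library (22.5 to 27.3), 19.2 at 12 dpa (16.1 to 22.8), 43.4 at 17 dpa (37.1 to 50.6) and 62.9 at 28 dpa (54.3 to 72.5). The 28 dpa level was 2.53-fold higher (2.12 to 3.01) than the unamputated one and the 17 dpa level 1.75-fold higher (1.45 to 2.10). Per Bmp4 UMI these cells therefore held 2.39 Bmp2 UMIs in the unamputated library (2.14 to 2.69), 3.11 at 12 dpa (2.55 to 3.82), 0.691 at 17 dpa (0.539 to 0.883) and 0.253 at 28 dpa (0.18 to 0.348). This ratio is taken within the same cells of 1 library and so does not depend on how libraries are scaled. Of the 10 genes, 4 reached 10 CPM in endothelial-like cells at 28 dpa, 1 called higher (Bmp4) and 1 lower (Bmp2), where 4.61% of all genes tested were called in either direction. None of the 4 was called at 12 dpa, where 1.16% of all genes were, or at 17 dpa, where 1.46% were.

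The exchange of Bmp2 for Bmp4 was present in both endothelial clusters. In cluster 5, led by the venular genes Selp, Sele and Ackr1, Bmp2 was 56.9, 82.1, 25.2 and 12.3 CPM and Bmp4 43.5, 29.9, 75.7 and 85.6 CPM. In cluster 6, led by Adgrl4 and the capillary gene Gpihbp1, Bmp2 was 60.8, 51.5, 33.4 and 19.2 CPM and Bmp4 16.0, 16.9, 22.1 and 44.7 CPM. The ratio of Bmp2 to Bmp4 UMIs was lower at each later time from 12 dpa onward in both, down to 0.144 in cluster 5 and 0.431 in cluster 6 at 28 dpa. Markers of other cells moved too: the summed 10 fibroblast markers in endothelial-like cells were 225, 1044, 706 and 796 CPM, against 46362 to 65516 CPM in fibroblast-like cells, and the 14 pericyte and smooth muscle markers together were 93.9, 79.4, 261 and 449 CPM, higher at 17 and 28 dpa. Bmp4 stood at 67.4 CPM in fibroblast-like cells at 28 dpa, about the endothelial level itself, and the part of these other transcripts in the result was not tested.

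**Figure D2:**
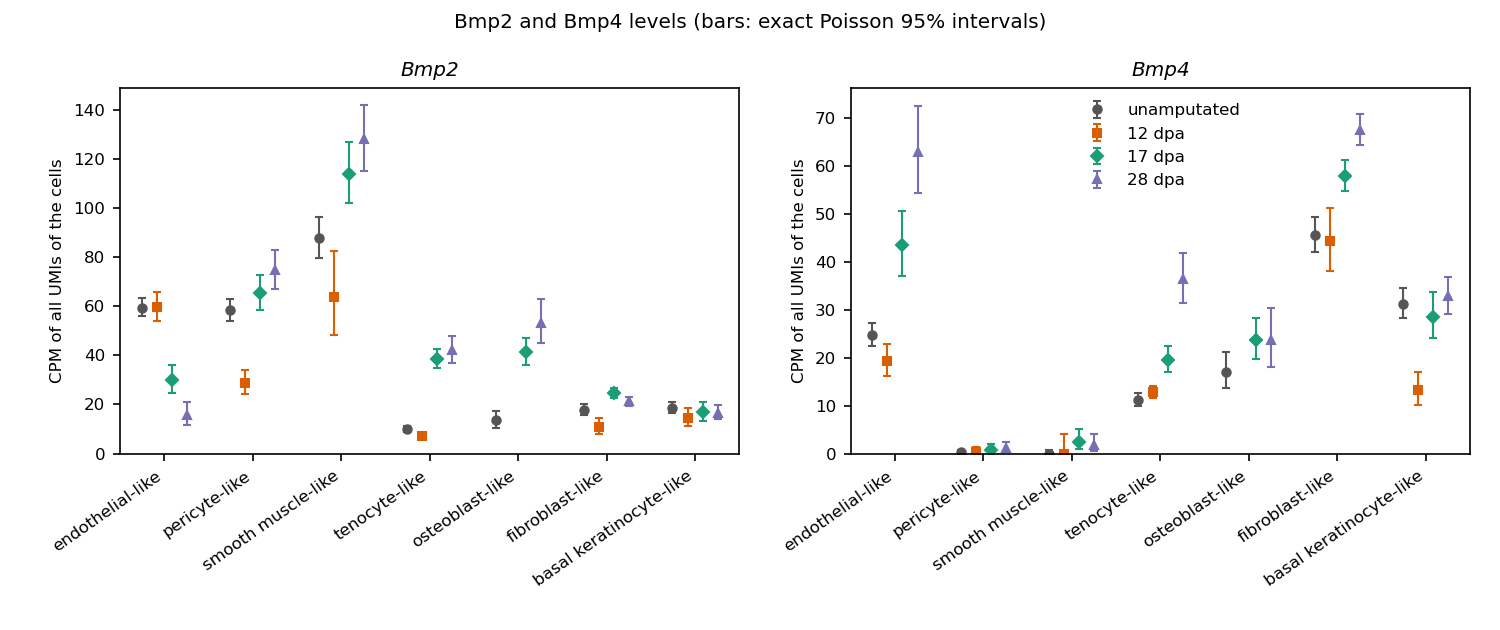
Points give Bmp2 (left) and Bmp4 (right) in CPM of all UMIs of each class, 1 point per library, with exact Poisson 95% intervals as bars. In endothelial-like cells Bmp2 goes from 59.4 to 15.9 CPM and Bmp4 from 24.8 to 62.9 CPM between the unamputated and the 28 dpa library, while tenocyte-like and osteoblast-like Bmp2 is higher at 17 and 28 dpa.

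Bmp2 in the skeletal classes differed in the direction opposite to the endothelium. Tenocyte-like cells held 9.86, 7.02, 38.4 and 42.1 CPM, so the 17 dpa level was 3.90-fold higher (3.31 to 4.60) and the 28 dpa level 4.27-fold higher (3.54 to 5.15) than the unamputated one. Within clusters the difference was smaller: 22.1, 21.7, 60.7 and 78.8 CPM in cluster 9, and 8.58, 6.91, 22.3 and 27.8 CPM in cluster 11, 2.74- and 2.60-fold higher at 17 dpa. Cluster 21, a larger part of the class in the unamputated library than at 17 dpa, held 4.58, 6.06 and 7.38 CPM up to 17 dpa, the last 1.61-fold higher (0.759 to 3.12). Osteoblast-like cells held 13.6 CPM in the unamputated library, 41.2 at 17 dpa and 53.3 at 28 dpa, 3.94-fold higher (2.93 to 5.33) at the last time. Fibroblast-like cells held 17.9, 11, 24.7 and 21.3 CPM, above these skeletal classes in the unamputated library and below them at 17 and 28 dpa. Their highest level was in cluster 20, at 60.1, 63.2 and 65.5 CPM in the unamputated, 17 and 28 dpa libraries against 10.2 to 16.4 CPM in cluster 19. Cluster 20 gave 106 of the 246, 246 of the 546 and 141 of the 514 fibroblast-like Bmp2 UMIs in those libraries. By count of molecules the source shifted: endothelial-like cells gave 32.5 and 39.7% of the Bmp2 UMIs in the unamputated and 12 dpa libraries, and fibroblast-like cells gave the largest part, 24.9 and 24.3%, at 17 and 28 dpa. These shares also move with how many cells of each class were captured.

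Macrophage-like cells carried Bmp2 unevenly. Cluster 1, led by Pf4, Mrc1 and Folr2, stood at 85.5 CPM in the unamputated library, at 2.47 CPM from a single UMI at 12 dpa, and at 20 and 16.0 CPM at 17 and 28 dpa. The unamputated value rests on 177 UMIs in few cells: thinned to 2000 UMIs each, 5.88% of these cells had a Bmp2 UMI there, against 3.37 and 3.26% at 17 and 28 dpa.

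Outside the endothelium Bmp4 was foremost a fibroblast transcript. Fibroblast-like cells held 45.5, 44.2, 57.9 and 67.4 CPM, and the 28 dpa level was 1.48-fold higher (1.35 to 1.63), short of the 2-fold call. Cluster 12 went from 38.6 CPM in the unamputated library to 51.8 at 17 dpa and 70.9 at 28 dpa, whereas cluster 20 stayed between 22.3 and 31.3 CPM. Tenocyte-like cells went from 11.2 and 12.8 CPM in the unamputated and 12 dpa libraries to 19.6 at 17 dpa and 36.3 at 28 dpa, 3.24-fold higher (2.68 to 3.92). Within them the difference lay in cluster 11, at 6.39, 8.87, 21.1 and 41.8 CPM, 6.53-fold higher (4.56 to 9.58) at 28 dpa, while cluster 9 held 15.8, 25.8, 20.4 and 22.7 CPM. Basal keratinocyte-like cells, a further source, held 31.2, 13.2, 28.5 and 32.8 CPM, with 12 dpa 2.37-fold lower (1.81 to 3.14). Id1 (below) was the other of the 10 genes called lower in these cells at 12 dpa, where 1.83% of all genes were called lower. Smooth muscle-like and pericyte-like cells, among the highest 3 classes for Bmp2 in each library, held 0 to 2.52 and 0.278 to 1.08 CPM of Bmp4.

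The gene lies on the minus strand at chr14:46383520-46390669 (GRCm38). The 250 bases before its RefSeq start, at chr14:46390670-46390919 on the minus strand, are shown because Bmp4 was called in both endothelial-like and tenocyte-like cells at 28 dpa, with the SMAD-binding letters GTCT or AGAC in capitals.
Bmp4: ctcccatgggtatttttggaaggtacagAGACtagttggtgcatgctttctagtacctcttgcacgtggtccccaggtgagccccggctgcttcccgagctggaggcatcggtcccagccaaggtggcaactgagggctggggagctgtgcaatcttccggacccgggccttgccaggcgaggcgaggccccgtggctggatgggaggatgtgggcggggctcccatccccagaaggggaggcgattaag
These letters occur in 88.0% of all RefSeq promoters of the same 300-base length (250 before and 50 after the start), and the GC-rich SMAD letters GGCGCC in 11.9%, searched on both strands, the latter being their own reverse complement. The Bmp4 window of 300 bases held 2 matches to GTCT or AGAC and 0 to GGCGCC. A match to letters is a description and not a bound site.

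Bmp7, a ligand of kidney and eye development, was highest by class level in the 3 keratinocyte-like classes of each library. By count of molecules, fibroblast-like cells gave 6.40% of the Bmp7 UMIs in the unamputated library but 31.3% at 17 dpa, more than the 28.7% of basal keratinocyte-like cells. Follicle keratinocyte-like cells held 74.8, 62.4, 73.2 and 53.9 CPM, suprabasal ones 59.4, 53.3, 53.5 and 58.3 CPM, and basal ones 50.9, 49.2, 42.5 and 36.7 CPM. The basal level at 28 dpa was 1.39-fold lower (1.21 to 1.59), and Bmp7 was called in no class at any time. Among the stromal clusters measured it was highest in cluster 20, which held 59.5 CPM (48.7 to 72.1) in the unamputated library, 47.0 at 17 dpa and 35.3 (27.8 to 44.2) at 28 dpa, 1.69-fold lower (1.24 to 2.30) at the last time. Cluster 19 held 0.275 to 1.10 CPM over the 4 libraries, and cluster 12 held 0 UMIs in the unamputated library, which allows up to 0.646 CPM, and 0.95 and 1.02 CPM at 17 and 28 dpa. The fibroblast-like class without cluster 20 held 0.836, 3.86, 2.47 and 1.41 CPM, and tenocyte-like cluster 21 reached 6.71 CPM at 17 dpa on 10 UMIs. After thinning, 10.4, 8.27 and 5.10% of cluster 20 cells had a Bmp7 UMI at the 3 measured times, against 0 to 1.88% of lymphoid cells (T or NK-like and B-like, at 12 dpa T or NK-like alone), which should lack it, with median depths of 6378 to 13974 and of 2234 to 3977 UMIs.

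Gdf5, the joint ligand, was close to absent from these cells. Tenocyte-like cells held 15, 9, 3 and 24 UMIs, or 0.640, 0.287, 0.283 and 4.49 CPM, and all 24 at 28 dpa lay in cluster 11, at 6.43 CPM. It stayed under 10 CPM in every class, so no fold was judged.

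Gdf10 (also called BMP3B), a divergent member of the family, was the most abundant of the 5 ligands in fibroblast-like cells of each library. Fibroblast-like cells held 191 CPM in the unamputated library (184 to 198), 83.4 at 12 dpa (74.9 to 92.6), 271 at 17 dpa (264 to 278) and 103 at 28 dpa (99.0 to 107). No intervals overlapped. The 12 dpa level was 2.29-fold lower (2.05 to 2.57), the 17 dpa level 1.42-fold higher and the 28 dpa level 1.85-fold lower than the unamputated one. At 12 dpa the log2 ratio of CPM + 1 was -0.99 when libraries were scaled by median of ratios, just under the call.

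By cluster the courses differed. Cluster 12 held 399 CPM in the unamputated library, 601 at 17 dpa and 387 at 28 dpa, so its 28 dpa level was near the unamputated one. Cluster 19 held 98.6, 73.5, 170.1 and 52.4 CPM, 1.88-fold lower (1.71 to 2.08) at 28 dpa, and cluster 20 held 22.1, 19.3 and 7.89 CPM in the unamputated, 17 and 28 dpa libraries. Cluster 19 held 84.2% of the 12 dpa class, and its own 12 dpa level was not 2-fold below the unamputated one. Within cluster 12, 45.9, 57.0 and 47.4% of cells had a Gdf10 UMI after thinning, against 0 to 0.469% of lymphoid cells, where 0 of 138 cells at 12 dpa allows up to 2.17%. In the whole fibroblast-like class the thinned shares were 26.0, 13.2, 27.6 and 16.2%.

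Tenocyte-like Gdf10 was likewise lowest at 12 dpa, at 12.9 CPM against 75.7, 139 and 136 CPM in the unamputated, 17 and 28 dpa libraries, 5.89-fold lower (5.28 to 6.58) than unamputated. Cluster 9 gave 1422 of the 1773 tenocyte-like Gdf10 UMIs in the unamputated library but 67 of 403 at 12 dpa, when it was small. Its own level was 249.8, 69.1, 263 and 443 CPM, so that within it the 12 dpa level was 3.61-fold lower and the 28 dpa level 1.77-fold higher. Cluster 21 was also lower at 12 dpa, at 10.4 against 25.8 CPM, while cluster 11 was slightly higher, at 11.6 against 7.91 CPM. Osteoblast-like cells held 62.5, 109.8 and 201 CPM in the unamputated, 17 and 28 dpa libraries, 3.21-fold higher (2.79 to 3.71) at 28 dpa. In 3 classes with cells to measure Gdf10 passed the 10 CPM level in the unamputated or the 12 dpa library, and it was called lower in all 3. The third, lymphatic endothelial-like cells, passed only through the unamputated library, at 12.2 against 2.08 CPM on 27 and 3 UMIs. Of all genes, 6.27% were called lower in fibroblast-like, 1.79% in tenocyte-like and 1.75% in lymphatic endothelial-like cells at 12 dpa.

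The Gdf10 gene lies on the plus strand at chr14:33923587-33937983 (GRCm38). Its 250 upstream bases, chr14:33923337-33923586 on the plus strand, are shown as those of the ligand highest in fibroblast-like cells, with GTCT or AGAC in capitals.
Gdf10: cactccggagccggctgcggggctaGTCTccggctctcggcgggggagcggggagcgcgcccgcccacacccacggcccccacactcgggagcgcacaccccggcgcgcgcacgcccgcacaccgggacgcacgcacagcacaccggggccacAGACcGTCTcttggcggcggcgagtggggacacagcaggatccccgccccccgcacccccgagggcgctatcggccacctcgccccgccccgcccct
The stretch is 78.8% G or C, against 63.2% for that of Bmp4, and the 300-base window held 3 matches to GTCT or AGAC and 1 to GGCGCC, the latter past the start and so not among the bases shown.

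Grem1, gremlin, was rare. Follicle keratinocyte-like cells held 6.36, 2.29, 9.06 and 8.22 CPM, tenocyte-like cells 2.26, 2.84, 1.22 and 0.374 CPM, and osteoblast-like cells 1.57, 6.84 and 0.381 CPM in the unamputated, 17 and 28 dpa libraries. Cluster 19 held 15 UMIs, or 2.06 CPM, in the unamputated library and 0 in the other libraries. It stayed under 10 CPM in every class.

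Nog, noggin, was highest, over whole classes, in osteoblast-like cells in the 3 libraries where these could be measured. Tenocyte-like cluster 9 alone stood above them at 28 dpa, and did not differ from them beyond its interval at 17 dpa. Osteoblast-like cells held 21.2, 24.7 and 44.6 CPM in the unamputated, 17 and 28 dpa libraries, 2.10-fold higher (1.60 to 2.76) at 28 dpa. Tenocyte-like cells held 5.12, 0.542, 13.4 and 26.4 CPM, 2.61-fold higher (2.03 to 3.36) at 17 dpa and 5.15-fold higher (4.01 to 6.62) at 28 dpa. Within them cluster 9 held 17.4 CPM (14.1 to 21.2) in the unamputated library, 1.03 from 1 UMI at 12 dpa, 25.6 at 17 dpa and 86.2 (72.0 to 102) at 28 dpa, the last 4.96-fold above the first (3.78 to 6.51). It gave 129 of the 142 tenocyte-like Nog UMIs at 17 dpa and 129 of 141 at 28 dpa, while cluster 11, the larger part of the class at 28 dpa, held 0.673, 0.576, 2.69 and 2.95 CPM. After thinning, 3.87, 0, 4.32 and 12.4% of cluster 9 cells had a Nog UMI, where 0 of 79 cells at 12 dpa allows a share of up to 3.80%. Fibroblast-like cells held 2.11, 3.11, 2.36 and 7.44 CPM, under the level for a call, with 28 dpa 3.52-fold higher (2.37 to 5.41). Being many, they gave 38.5% of the Nog UMIs at 28 dpa, the largest part, against 8.12% in the unamputated library. At 12 dpa only 52 Nog UMIs were counted in all cells, and Schwann-like cells, at 7.59 CPM in the unamputated library, stood above tenocyte-like ones there.

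Bmper was called lower in fibroblast-like and higher in osteoblast-like cells at 28 dpa. Fibroblast-like cells held 20.6 CPM (18.3 to 23.2) in the unamputated library, 8.37 (5.83 to 11.6) at 12 dpa, 15.5 at 17 dpa and 5.13 (4.27 to 6.11) at 28 dpa. The 12 dpa level was 2.47-fold lower (1.73 to 3.61) and the 28 dpa level 4.02-fold lower (3.25 to 5.01). In cluster 12 alone the level went from 37.1 CPM to 9.66 at 17 dpa and 5.88 at 28 dpa, 6.30-fold lower at the end. Cluster 20 held more of it, at 51.6, 63.2 and 29.2 CPM. Cluster 19, most of the class at 12 dpa, held little, 2.75, 5.21, 2.73 and 1.95 CPM, with 12 dpa 1.90-fold higher (0.957 to 3.74) and 28 dpa 1.41-fold lower (0.771 to 2.51) than unamputated, so the class's 12 dpa difference was absent there. Without cluster 20 the class held 16.1, 5.15, 5.28 and 2.77 CPM, which adds a lower call at 17 dpa that the whole class did not give, where 1.40% of all genes were called lower. In smooth muscle-like cells Bmper was called higher at 12 dpa, at 10.1 CPM from 9 UMIs against 2.59 from 13, where 1.36% of all genes were called higher. Osteoblast-like cells held 46.9, 103 and 99.1 CPM in the unamputated, 17 and 28 dpa libraries, 2.20- and 2.11-fold higher at the later times. Cluster 9 of the tenocyte-like cells held 24.4, 26.8, 10.3 and 44.1 CPM, lowest at 17 dpa. Schwann-like cells, at 46.1, 31.8, 25.1 and 26.7 CPM, and follicle keratinocyte-like cells, at 23.8, 16.0, 42.1 and 25.1 CPM, were further sources.

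Bmper lies on the plus strand at chr9:23223076-23485200 (GRCm38), and its 250 upstream bases, chr9:23222826-23223075 on the plus strand, are shown because it was called in opposite directions in fibroblast-like and osteoblast-like cells, with GTCT or AGAC in capitals.
Bmper: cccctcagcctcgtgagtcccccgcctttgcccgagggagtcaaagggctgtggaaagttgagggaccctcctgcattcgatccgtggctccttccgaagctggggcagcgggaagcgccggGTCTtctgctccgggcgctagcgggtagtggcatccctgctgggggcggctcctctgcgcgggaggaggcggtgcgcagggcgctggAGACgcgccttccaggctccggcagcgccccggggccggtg
The 300-base window held 3 matches to GTCT or AGAC and 0 to GGCGCC, and 71.6% of the bases shown are G or C.

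**Figure D3:**
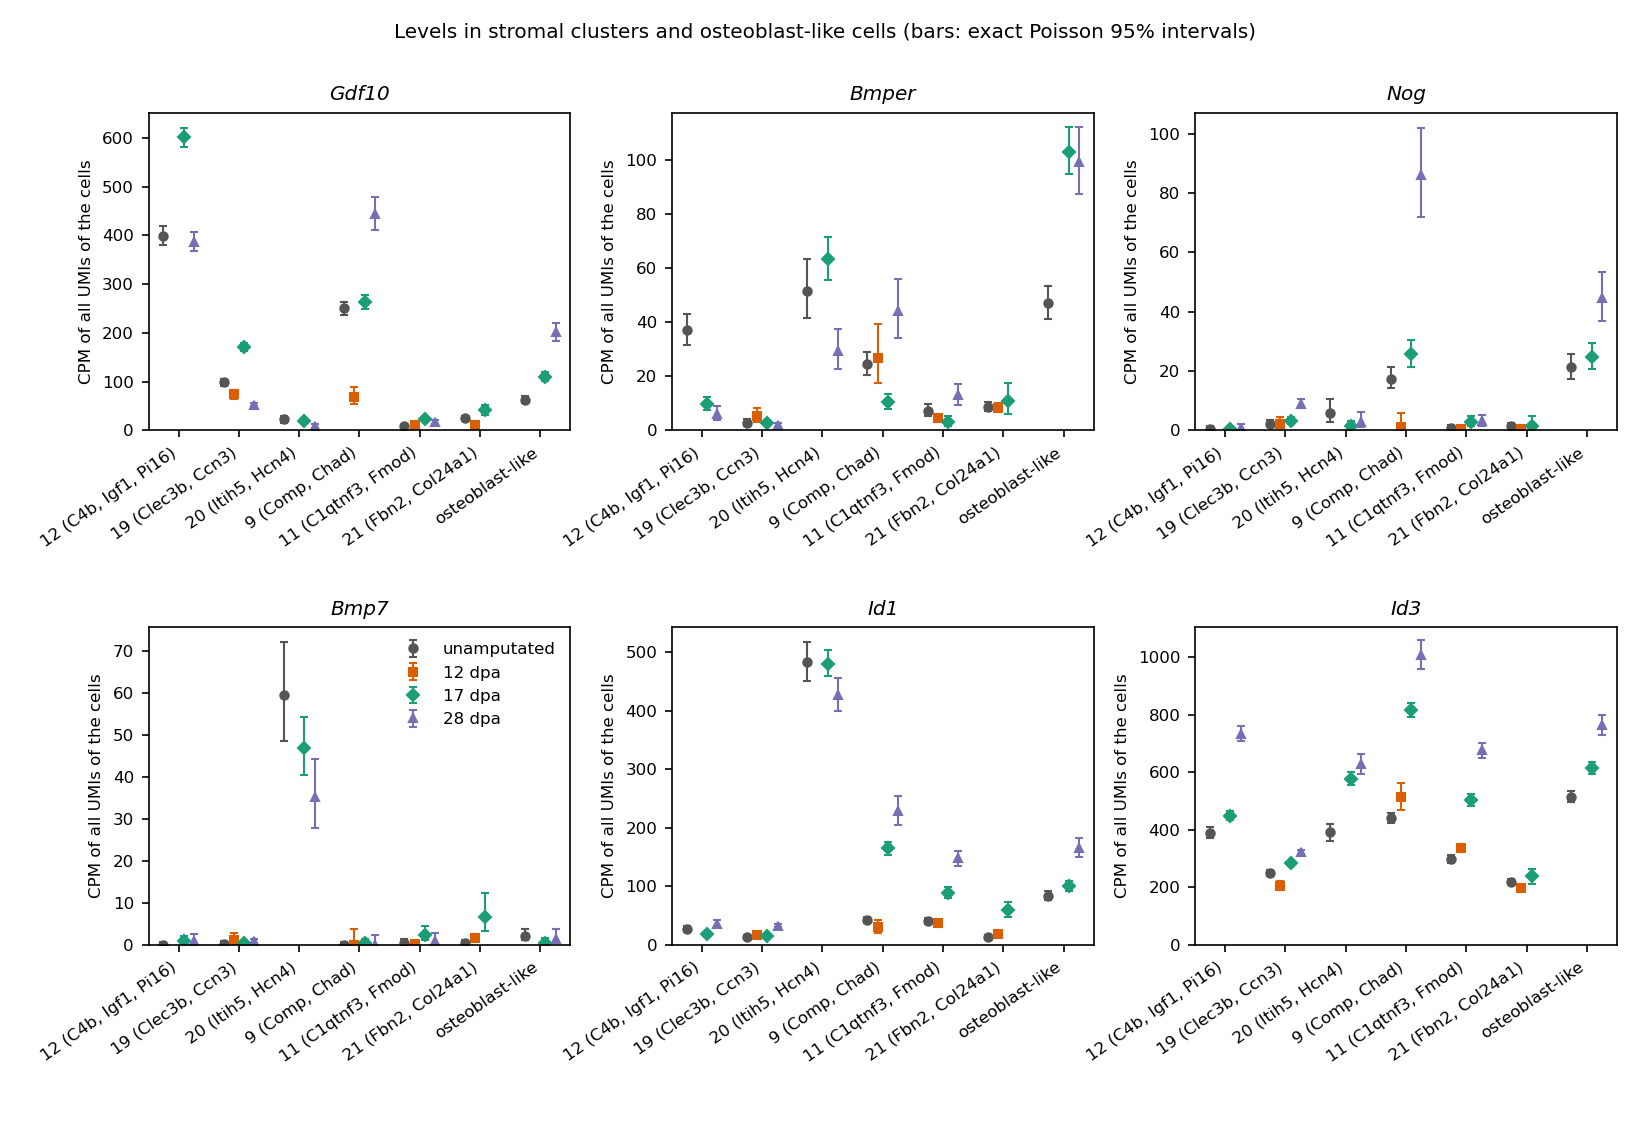
Points give 6 of the genes in CPM of all UMIs of each stromal cluster and of osteoblast-like cells, 1 point per library, with exact Poisson 95% intervals as bars; clusters 12 and 20 and osteoblast-like cells have no 12 dpa point, having under 50 cells. Gdf10 is high in clusters 9 and 12, Bmp7 and Id1 in cluster 20, and Nog in cluster 9 at 28 dpa (86.2 CPM) and in osteoblast-like cells.

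Counted together, in fibroblast-like cells 3 of the 6 members that reached 10 CPM in the unamputated or the 12 dpa library were called. These were Gdf10, Bmper and Id1, all lower at 12 dpa, where 7.40% of all genes were called in either direction and 6.27% lower. Bmper passed the 10 CPM level only through the unamputated library, at 20.6 against 8.37 CPM. In cluster 19 alone, 84.2% of the class at that time, 0 of the 5 members that reached 10 CPM were called at 12 dpa, where 4.27% of all genes in that cluster were, with Bmper at a log2 ratio of 0.73 and Id1 at 0.34. At 17 dpa 0 of 7 were called, where 1.51% of all genes were, and at 28 dpa 1 of 6, Bmper, where 7.35% were. Tenocyte-like cells had 1 of 5 called lower at 12 dpa (Gdf10), with 2.41% of all genes called in either direction. They had 4 of 7 called higher at 17 dpa (Bmp2, Nog, Id1 and Id3), where 1.14% of all genes were called higher, and 5 of 7 at 28 dpa, where Bmp4 joined them and 3.40% of all genes were called higher. Osteoblast-like cells had 2 of 7 called higher at 17 dpa (Bmp2 and Bmper), with 2.39% of all genes called higher. At 28 dpa 4 of 7 were called higher (Bmp2, Gdf10, Nog and Bmper), with 3.64% of all genes called higher. The tenocyte-like shares of clusters 9 and 21 given above move with these counts, and not every call held within cluster 9. There 2 of 7 were called higher at 17 dpa (Bmp2 and Id1), where 1.19% of all genes in that cluster were, and 4 of 7 at 28 dpa (with Nog and Id3), where 3.75% were. At 17 dpa Nog and Id3 were called in no tenocyte-like cluster: Id3 was 1.85-fold higher in cluster 9, 1.69-fold in cluster 11 and 1.08-fold in cluster 21, and Nog was 1.47-fold higher in cluster 9 and under 10 CPM in the other two. Bmp4 was not called in it at 28 dpa, at 1.44-fold (0.939 to 2.15). Each of the 3 later libraries was set against the same unamputated library, so the comparisons share it.

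Id1 and Id3, the targets, were read as levels of transcripts that BMP signals, among other signals, can raise. Id1 was highest in cluster 20 of the fibroblast-like cells, at 483, 480.3 and 427 CPM in the unamputated, 17 and 28 dpa libraries. Vascular endothelial-like cells held 227, 357, 340.2 and 343 CPM. Their cluster 6, with 422 CPM at 28 dpa, was about equal to cluster 20 at that time. Cluster 19 by contrast held 13.5, 17.3, 15.7 and 32.6 CPM and cluster 12 held 26.7, 18.4 and 35.6 CPM at its 3 measured times. After thinning, 35.7, 40.6 and 36.7% of cluster 20 cells had an Id1 UMI, against 1.79 to 5.34% of cluster 19 cells and 0.437 to 2.91% of lymphoid cells. In the whole fibroblast-like class Id1 stood at 78.4, 19.8, 99.6 and 70.6 CPM, so 12 dpa was 3.95-fold lower (3.16 to 5.0). Without cluster 20 the class held 18.7, 18.5, 18.0 and 35.8 CPM, and the 12 dpa difference was gone.

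Tenocyte-like Id1 was 27.8, 29.8, 121 and 169 CPM, 4.35-fold higher at 17 dpa and 6.10-fold higher (5.51 to 6.76) at 28 dpa. Every tenocyte-like cluster measured at those times took part: 42.9, 29.9, 165 and 229 CPM in cluster 9, 40.5, 37.4, 88.6 and 148 CPM in cluster 11, and 14.0, 19.6 and 59.7 CPM in cluster 21 up to 17 dpa. Smooth muscle-like cells held 107, 119.5, 194 and 309.8 CPM, pericyte-like cells 40.4, 37.7, 67.6 and 85.0 CPM, and osteoblast-like cells 83.9, 101 and 166 CPM in the unamputated, 17 and 28 dpa libraries. Basal keratinocyte-like cells held 54.8, 26.8, 47.8 and 62.0 CPM, 2.04-fold lower at 12 dpa. The 2 classes where Id1 was called higher at 12 dpa were low expressors, macrophage-like cells at 3.42, 10.8, 2.21 and 3.42 CPM, where 0.514% of all genes were called higher, and dendritic-like cells at 4.61, 17.1, 6.52 and 6.51 CPM, where 2.22% were.

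Id3 was highest in smooth muscle-like cells, which held 817, 998, 999 and 1457 CPM, and pericyte-like cells held 498, 545, 769 and 1178 CPM. Vascular endothelial-like cells held 330.4, 531, 512 and 619.9 CPM, tenocyte-like cells 294, 285, 614 and 767 CPM, and fibroblast-like cells 314, 234, 383 and 419 CPM. Cluster 12 went from 389.8 CPM to 449 at 17 dpa and 734 at 28 dpa. Macrophage-like cells held 72.6, 106, 63.2 and 54.2 CPM, 1.34-fold lower at 28 dpa, while the share of cluster 1 in the class went from 11.2% to 82.8% of cells. In cluster 1 the 28 dpa level was 1.35-fold lower (1.12 to 1.63), and in cluster 0, the rest of the class, it was 1.04-fold higher (0.884 to 1.21).

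At 28 dpa Id1 was higher than in the unamputated library in 11 of the 12 classes where it reached 10 CPM, the exception being fibroblast-like cells at a log2 ratio of -0.15. Without cluster 20 these too were higher, 1.92-fold (1.65 to 2.24), and cluster 19 was called higher, at 2.42-fold (1.95 to 3.03), where 2.37% of all genes in it were. At 17 dpa the whole class was 1.27-fold higher but, without cluster 20, 1.03-fold lower (0.868 to 1.23). In 10 of the 12 classes the interval of the fold lay above 1, and in 6 it was called higher. Those were tenocyte-like (3.40% of all genes called higher), pericyte-like (1.69%), smooth muscle-like (2.0%), Schwann-like (4.10%), B-like (13.4%) and T or NK-like cells (8.02%). Id3 was higher in 14 of 15 classes, the exception being macrophage-like cells, whose clusters differed as given above, and was called higher in tenocyte-like, pericyte-like and T or NK-like cells. The median log2 ratio over classes was 1.02 for Id1 and 0.74 for Id3, while the median of all genes at 28 dpa was -0.13 in fibroblast-like, -0.12 in tenocyte-like and -0.10 in vascular endothelial-like cells. At 17 dpa Id1 was higher in 11 of 13 classes and Id3 in 13 of 16, each called in tenocyte-like and T or NK-like cells, the latter with 8.42% of all genes called higher. The lymphoid calls rest on few molecules, T or NK-like Id1 on 4, 2, 6 and 4 UMIs and Id3 on 23, 12, 22 and 11. B-like Id1 at 28 dpa rests on 3 UMIs against 2, with a fold interval of 0.591 to 61.8 that includes 1. Lymphocytes can express Id3 themselves, so its share in them does not measure free RNA. It was 3.03, 2.90, 2.94 and 5.26% of thinned T or NK-like cells, against 68.4, 71.3, 72.4 and 78.6% of smooth muscle-like cells. At 12 dpa Id1 was higher in 7 of 12 classes, with 2 called higher and 2 lower, and Id3 in 9 of 14 with 1 called, in follicle keratinocyte-like cells where 2.35% of all genes were called higher.

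Handling of tissue can raise early-response genes, so the 17 dissociation-response genes (Fos, Jun, Egr1 and others) are set beside them. Their summed level was 9769, 6734, 11754 and 16924 CPM in smooth muscle-like cells, 5043, 3572, 6572 and 8008 CPM in pericyte-like cells, and 5313, 3764, 6976 and 6864 CPM in vascular endothelial-like cells. In these 3 classes it was lower at 12 dpa and higher at 17 and 28 dpa than unamputated. In tenocyte-like cells it was 3308, 1911, 3340.5 and 3443 CPM, about equal in the unamputated, 17 and 28 dpa libraries. In osteoblast-like cells it was 1932, 4098 and 4751 CPM in those libraries, and in fibroblast-like cells 6107, 4135, 8153 and 6618 CPM. It was 2077, 1718, 1686 and 2017 CPM in follicle keratinocyte-like cells and 4332, 3258, 7497 and 6663 CPM in Schwann-like cells. Basal and suprabasal keratinocyte-like cells had lower sums at each later time than unamputated. Basal ones held 1469, 715, 946 and 848 CPM and suprabasal ones 1795, 891, 1315 and 1180.3 CPM. At 28 dpa Id1 was 1.13-fold higher (1.01 to 1.27) in the basal and 1.77-fold higher (1.54 to 2.04) in the suprabasal ones, and Id3 1.19-fold (1.06 to 1.33) and 1.97-fold higher (1.72 to 2.26). The part of the dissociation response in the Id levels was not tested.

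**Figure D4:**
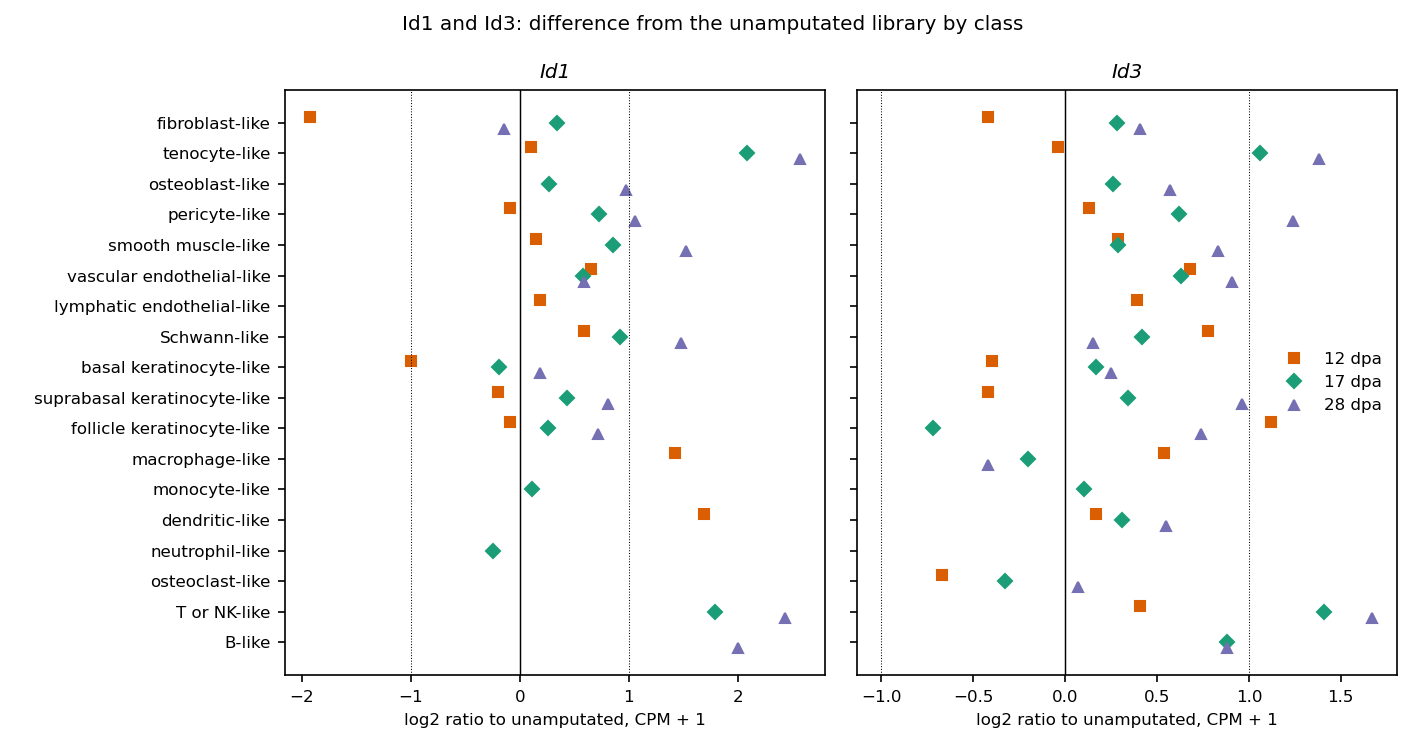
Points give the log2 ratio of CPM + 1 to the unamputated library for Id1 (left) and Id3 (right) in each class where the gene reached 10 CPM, 1 point per later library; the solid line marks no difference and the dotted lines the 2-fold call. At 28 dpa 11 of 12 classes for Id1 and 14 of 15 for Id3 lie to the right of the solid line.

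The rest of the pathway was read in fibroblast-like cells from lists chosen for their place in it, to be set against the 7.40, 1.51 and 7.35% of all genes called there at 12, 17 and 28 dpa. All these values are of the whole class, of which cluster 12 held 36.2% of cells in the unamputated library and 4.95% at 12 dpa. The part of this makeup in them was not tested. Of 9 other ligands, 1 reached 10 CPM at 12 dpa and at 17 dpa and 2 did at 28 dpa. Bmp5 went from 155 to 30.8 CPM at 12 dpa, 5.03-fold lower, and Bmp6 from 4.30 to 18.5 CPM at 28 dpa, 4.31-fold higher. Of 10 receptors and coreceptors 9 reached 10 CPM each time, led by the type II receptor Bmpr2 at 213, 133, 202 and 185 CPM. The type I receptor Bmpr1b was called lower at all 3 times, at 116 CPM in the unamputated library against 49.0, 38.9 and 24.1 CPM, 4.80-fold lower (4.36 to 5.29) at 28 dpa. The activin type II receptor Acvr2a was called lower at 12 dpa (46.1 CPM) and at 28 dpa (49.5 CPM) from 101 CPM. No receptor was called higher.

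Among 19 other antagonists and modulators, 12, 11 and 14 reached 10 CPM in the higher library of the 12, 17 and 28 dpa comparisons. Of these 0, 0 and 1 were called higher and 2, 1 and 4 called lower, beside the same shares of all genes. Fstl1 was the most abundant, at 3169, 2331, 2974 and 2831 CPM. Smoc1, a matricellular BMP modulator, was lower at all 3 times, at 15, 1.67, 3.40 and 2.07 CPM, and its relative Smoc2 went from 94.1 to 42.8 CPM at 28 dpa. Tll1, a protease of the family that cleaves chordin, went from 24.6 CPM to 11.7 at 12 dpa and 3.64 at 28 dpa, and Chrdl1, chordin-like 1, from 65.9 to 31.4 CPM at 28 dpa. Sostdc1 was the gene called higher, from 1.02 to 12.9 CPM at 28 dpa, 12.6-fold. Some sets of markers of other cells in the fibroblast-like class stood higher then too. The 7 suprabasal keratinocyte markers together stood at 640.3 against 180.0 CPM and the 14 pericyte and smooth muscle markers at 252 against 114 CPM. Other sets stood lower, among them the 7 tenocyte markers at 466 against 561 CPM and the 7 Schwann markers at 57.4 against 77.7 CPM. The class's own 10 markers stood at 46362 against 65516 CPM, and the part of these in the 28 dpa values was not tested. The 4 SMAD transducers had none called in 3 that reached 10 CPM, led by Smad4 at 129, 103, 124 and 104 CPM. Of 6 feedback inhibitors all reached 10 CPM and 1 was called, the ubiquitin ligase Smurf2, at 261, 113, 185 and 165 CPM. Of 8 other targets 3 reached 10 CPM, and Id2 was called lower at 12 dpa, from 50.6 to 20.6 CPM, while Msx1 held 67.0, 60, 74.2 and 78.3 CPM.

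Patterns were also compared over 64 profiles of a class in a library, which share the classes' own marker genes and depth, so a high correlation describes class specificity and nothing more. The nearest genes by Pearson correlation were Ccdc68 for Bmp2 (0.85), Lpin3 for Bmp4 (0.87) and Perp for Bmp7 (0.92). Gdf10 was nearest to Sfrp4 and Ccn5 (0.92 each) and Hoxd13 (0.91), Nog to Scube1 (0.87), and Bmper to Tnc (0.88). Id1 was nearest to Ptprg, Hoxa7 and Foxc1 (0.82 each) and Id3 to Triqk (0.89). Of the 3 nearest genes by Pearson, the number also among the 3 nearest by Spearman was 3 for Bmp2, 2 for Bmp4, 1 each for Gdf10, Bmper and Id1, and 0 for Bmp7, Nog and Id3.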

How the data were processed

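The authors deposited 1 matrix of raw UMI counts per library from 10x Chromium 3′ v3 chemistry, made with Cell Ranger 7.1.0 on mm10, per the submitters' processing notes. Barcodes under 500 genes, under 1000 UMIs or over 10% mitochondrial were dropped, and Scrublet doublets (0.8% per 1000 barcodes: 7.05 to 12.8% of all barcodes of a library) were removed. Counts scaled to 10000 per cell gave 2000 variable genes, 30 components, 15 neighbours and 29 Leiden clusters at resolution 1 (scanpy 1.11.5, Python 3.11.15, numpy 2.4.6, scipy 1.17.1); 102 genes (members, pathway lists, dissociation, sex-linked and mitochondrial) were left out. Clusters were named X-like from 26 marker lists where at least 3 markers were each in 25% of cells, giving 18 classes. A cluster was left unnamed where another class had more markers among its 10 leading genes, or where its UMIs were low and none of its own markers led (cluster 18). Classes with at least 50 cells in a library were measured; fold intervals are exact binomial ones and shares (cells thinned to 2000 UMIs) Clopper-Pearson ones. Named genes were the members where they reached 10 CPM, listed genes called in fibroblast-like cells, each list's highest gene, and the 3 nearest genes; lower levels of members were added after their values were seen. Members and lists were chosen with earlier results of these data known. The 2-fold call was tried on simulated fibroblast-like counts with changes planted in well-expressed genes. These counts held counting error only, so the trial did not cover spread between mice, cluster makeup or low genes. Promoters (RefSeq, GRCm38.p6) matched 5 of 10 members; gene positions are from GENCODE M21 (GRCm38), which matched 32235 of 32285 gene IDs.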

Additional observations from a re-analysis of the deposited data

Results flagged for a closer look

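Several genes were called in opposite directions in different classes at the same time, on the log2 scale of CPM + 1 against unamputated cells; with 1 library per group the difference between classes was not tested. Bmp2 at 28 dpa was -1.84 in vascular endothelial-like cells but 1.90 in osteoblast-like and 1.99 in tenocyte-like cells. Bmper at 12 dpa was -1.21 in fibroblast-like and 1.62 in smooth muscle-like cells, the latter on 9 UMIs against 13, and at 28 dpa it was -1.82 in fibroblast-like and 1.06 in osteoblast-like cells. Id1 at 12 dpa was -1.93 in fibroblast-like and -1.0 in basal keratinocyte-like cells but 1.42 in macrophage-like and 1.69 in dendritic-like cells. The fibroblast-like Id1 value was -0.01 without cluster 20 and 0.34 in cluster 19 alone, and the fibroblast-like Bmper value at 12 dpa was 0.73 in cluster 19 alone.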

How the results depend on the processing

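No paired analysis was possible because each group held 1 library, and for the same reason no replicate could be left out. Values are log2 ratios of CPM + 1. Endothelial Bmp2 (-1.95 to -1.61) and Bmp4 (1.12 to 1.41) at 28 dpa and tenocyte-like Nog (1.63 to 2.60) at 28 dpa stayed past 2-fold in 9 of 9 settings, and in fibroblast-like cells Gdf10 at 12 dpa (-2.43 to -0.42) and Bmper at 12 dpa (-1.56 to 0.73) and 28 dpa (-2.18 to -0.35) in 10 of 12, and Id1 at 12 dpa (-2.39 to 0.34) in 7 of 12. The setting with no filter on low genes, included in each of these counts, cannot change a ratio, so its agreement was fixed in advance. Directions reversed in cluster 19 alone at 12 dpa (Bmper 0.73, Id1 0.34). Uncalled fibroblast-like Id1 also changed sign, from -0.15 to 0.90 at 28 dpa and from 0.34 to -0.05 at 17 dpa without cluster 20, and to 1.22 at 28 dpa in cluster 19 alone. Directions also reversed, with no doublets removed, in T or NK-like cells at 17 dpa (Gdf10 -0.22, Id3 -0.68), where Gdf10 rested on 6 UMIs against 0. In fibroblast-like cells the share of all genes called was 4.85% at 12 dpa and 0.961% at 17 dpa with a pseudocount of 5, 4.80 and 2.62% with tenocyte-like cells pooled in, 4.27% at 12 dpa in cluster 19 alone, and 2.54% at 17 dpa with each cell named alone. The number of members called was 1 at 17 dpa (Grem1, lower) and 3 at 28 dpa with no filter on low genes, 2 (Bmp2, Id1) and 2 (Bmp4, Nog) with tenocyte-like cells pooled in, 1 (Bmper) at 17 dpa without cluster 20, and 0 at 12 dpa in cluster 19 alone, where at 28 dpa the 1 called was Id1, higher, in place of Bmper. With no filter on low genes, fibroblast-like Grem1 was past 2-fold lower at 12 dpa as well, at -1.07 on 0 UMIs against 15. Cluster 19 alone and the class without cluster 20 were chosen after seeing the data. The cause of these differences was not tested. Counting depth limits Gdf5, Grem1 and the small classes, and no setting addresses the spread between mice.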
